A study of Mus musculus with 10 samples.

Results

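The genes described here are 10 markers and effectors of the naive pluripotent state: Nr0b1, Fbxo15, Dppa2, Dppa3, Dppa4, Dppa5a, Tcl1, Fgf4, Utf1 and Prdm14. They were taken by symbol from a table of 25965 features, and all 10 were found and passed the filter on low values. RNA-seq was performed on male C57/Bl6 mouse embryonic stem cells (mESCs) from 2 independently derived lines, with 1 library per line in each of 5 groups. All cells were kept in 2i/LIF, a serum-free medium in which inhibitors of MEK and GSK3 and the cytokine LIF hold cells in the naive state. Both lines were derived under Keniry2022 conditions, sampled at p0, then divided and passaged to p10 and p20 by either method. In Keniry2022 culture the cells grow unattached in plates without tissue culture treatment, at higher density, in more medium and with daily passaging. In Mulas2019 culture they grow on gelatin in treated plates at lower density and are passaged every second day. The passage-matched groups therefore differ in days of culture, and p20 Keniry2022 matches p10 Mulas2019 in days. Substrate, density, medium volume and passaging interval changed together and cannot be told apart.

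Naive mESCs resemble the epiblast of the blastocyst before implantation. Their state is held by a network around Oct4, Sox2 and Nanog, and many of the 10 genes are known as targets or partners of that network that are switched off as cells leave it. Nr0b1 is an X-linked orphan nuclear receptor that represses transcription, Utf1 is a chromatin-associated factor, and Prdm14 represses FGF signalling and DNA methyltransferase genes. Dppa2 and Dppa4 are partner proteins with a SAP DNA-binding domain that act at developmental promoters and on genes of the 2-cell stage. Dppa3, also called Stella, protects DNA methylation in the zygote and is known to vary from cell to cell in mESC culture. Dppa5a is an RNA-binding protein with a KH domain, Fbxo15 an F-box protein widely used as a reporter of pluripotency, Tcl1 a co-activator of the kinase AKT, and Fgf4 a ligand that mESCs secrete to act on their own FGF receptors.

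Promoter sequence from the RefSeq table of build GRCm38.p6 is shown for 4 of the 10 genes. Fbxo15 was left out of the sequences, the CG counts and the motif search. For Dppa2, Dppa3, Dppa4, Dppa5a and Prdm14 no promoter was on hand. The 4 are thus the genes with a promoter on hand other than Fbxo15, which was itself called in the pooled test. They include the 2 genes with the largest differences between the methods, Utf1 and Nr0b1. Fgf4 and Tcl1, the second pair, did not pass the pooled test. Each run is 5′ to 3′ on the strand of the gene and stops before the first base of the feature in the deposited table. Capitals mark CG dinucleotides, the sites at which mammalian DNA is methylated. Utf1 lies at chr7:139943606-139943788 (plus strand), Nr0b1 at chrX:86191525-86191763 (plus), Fgf4 at chr7:144861136-144861385 (plus) and Tcl1 at chr12:105222794-105222987 (minus).
Utf1: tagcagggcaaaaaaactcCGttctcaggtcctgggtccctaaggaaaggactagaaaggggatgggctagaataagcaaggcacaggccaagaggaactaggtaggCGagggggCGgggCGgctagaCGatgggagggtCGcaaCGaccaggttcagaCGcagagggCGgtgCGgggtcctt
Nr0b1: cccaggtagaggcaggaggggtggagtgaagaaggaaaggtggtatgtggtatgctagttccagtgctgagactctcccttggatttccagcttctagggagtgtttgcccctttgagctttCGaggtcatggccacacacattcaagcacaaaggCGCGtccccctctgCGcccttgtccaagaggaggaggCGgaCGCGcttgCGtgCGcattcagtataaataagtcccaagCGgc
Fgf4: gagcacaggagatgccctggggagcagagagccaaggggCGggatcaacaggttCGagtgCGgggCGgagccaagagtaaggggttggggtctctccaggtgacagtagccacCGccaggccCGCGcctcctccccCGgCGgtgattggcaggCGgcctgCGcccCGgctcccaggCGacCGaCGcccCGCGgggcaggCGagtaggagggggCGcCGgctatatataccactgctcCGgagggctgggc
Tcl1: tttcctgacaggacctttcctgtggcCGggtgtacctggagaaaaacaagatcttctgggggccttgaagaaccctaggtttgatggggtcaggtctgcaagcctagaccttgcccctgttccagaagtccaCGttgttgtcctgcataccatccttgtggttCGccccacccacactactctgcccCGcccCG

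The Utf1 run held 10 CG in 183 bases, the Nr0b1 run 10 in 239, the Fgf4 run 21 in 250 and the Tcl1 run 5 in 194. Read over stretches of the same length in all 32851 promoters, 25.9% held at least as many CG as Utf1, 36.3% as many as Nr0b1, 16.3% as many as Fgf4 and 46.2% as many as Tcl1. In CG count the genes of the first pair thus lay between those of the second. The 250 bases before the RefSeq start of each gene were searched on both strands for 5 motifs, and no match was found in any of the 4. The share of all promoters with a match was 1.6% for ATGCAAAT (the octamer), 10.7% for CATTGT (a Sox core), 4.08% for AAGGTCA (a nuclear receptor half-site), 6.93% for GGGTGTG (a Klf-type box) and 6.02% for CACGTG (an E-box).

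Sequencing depth was 24053996 to 30236823 reads per library, of which 86% to 88.8% fell in features. Libraries from p0 stood apart: the SD of the log2 difference between the pair was 0.61, against 0.23 to 0.27 in the other groups. Reads of Y-linked genes were 132 and 8140 in p0 replicates 1 and 2, and the line with few such reads was replicate 1 in every group except p20 Keniry2022, where replicate 1 held 6659 and replicate 2 held 48. The numbers of that pair therefore appear exchanged, which bears only on fits that pair the libraries. From DNA-seq of these cells the study reports that a line lost its Y chromosome during derivation, before the culture methods were compared. In every group a library with few Y-linked reads was thus averaged with a library with many. The part of Y loss in the results below was not tested, since it cannot be told apart from other differences between the lines. Of other cell types, primitive endoderm markers did not exceed 1.01 RPKM (reads scaled by exon length and library total) in any library, and 0 of 7 could be tested. Trophectoderm markers summed to 3.94 to 4.78 RPKM under Keniry2022 and 5.08 to 6.81 under Mulas2019. These ranges did not overlap, nor did those of 46.5% of all single features tested. Of the 7 markers 2 were tested, Eomes and Krt18, and both were lower under Keniry2022, where 51.5% of all features were called. Krt18 had a mean log2 RPKM of -0.13 under Keniry2022 and 1.0 under Mulas2019. Its Mulas2019 libraries were by themselves enough for it to pass the filter on low values, which favoured that direction. Fibroblast markers summed to 81.8 to 119 against 55.2 to 95.9 RPKM, nearly all of it Vim, with 1 of 7 tested and not called and 1 at 0 reads in all libraries. The part of these markers in the results below was not tested. Cells that fell in number and cells that held less RNA of a gene cannot be told apart in bulk samples.

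The 10 genes covered a wide range of expression. Dppa5a was the 6th most abundant of 11561 features by its mean over the 10 libraries, with 18369 to 45449 reads per library. Fbxo15 was 91st, Fgf4 441st, Nr0b1 584th, Utf1 837th, Dppa3 1103rd, Dppa2 1312th, Dppa4 1713th, Tcl1 1726th and Prdm14 2858th. Fewest reads were found for Dppa3, with 770 in its lowest library, so that none of the 10 was limited by counting.

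**Figure D1:**
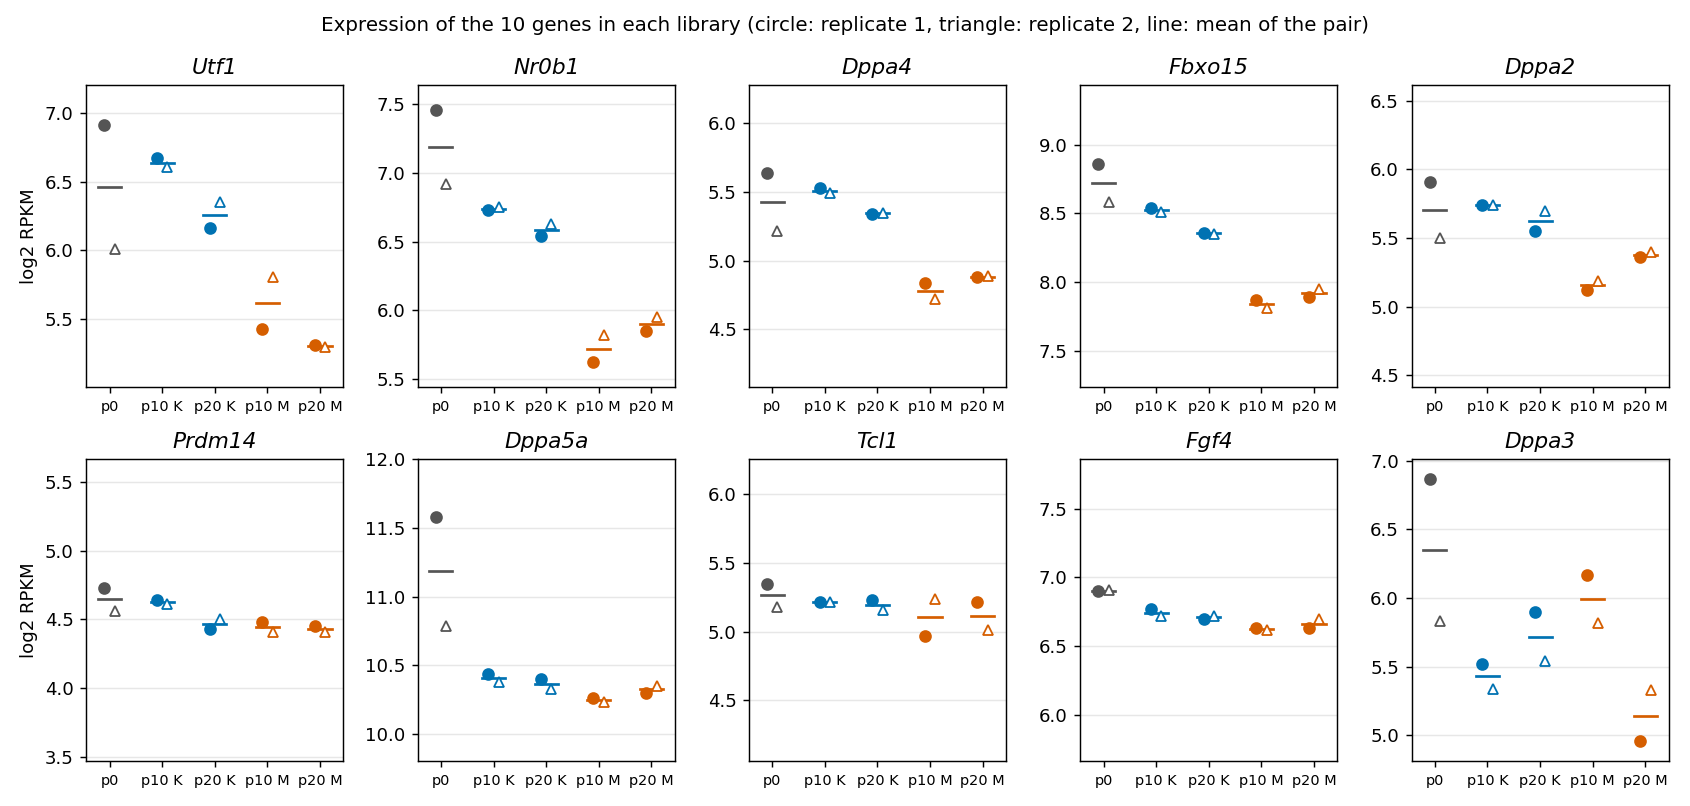
Each panel plots 1 gene, with log2 RPKM on the y axis and the 5 groups on the x axis (K, Keniry2022; M, Mulas2019). All panels span 2.2 log2 units, circles are replicate 1, triangles replicate 2 and lines the mean of the pair; the Mulas2019 libraries of Utf1, Nr0b1, Dppa4, Fbxo15 and Dppa2 lie below all those of Keniry2022.

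The first comparison asked whether these genes differed between the culture methods, with p10 and p20 pooled as 4 libraries per method. Higher expression under Keniry2022 was found for 6 of the 10, namely Utf1, Nr0b1, Dppa4, Fbxo15, Dppa2 and Dppa5a, and none was lower. Across all 11654 features tested, 51.5% were called in either direction and 25.9% were called higher. The median log2 difference was 0.27 over the 10 genes and 0.00 over all features. The groups did not overlap in 6 of the 10, compared with 46.5% of all features. Each adjusted p came from limma with Benjamini-Hochberg adjustment over all features, and the 4 libraries of a method are 2 lines sampled at 2 passages.

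Among the nuclear factors, Utf1 (ENSMUSG00000047751, chr7:139943789-139945112) gave the largest difference. Its log2 RPKM was 6.67 and 6.61 at p10 and 6.16 and 6.35 at p20 under Keniry2022, and 5.43 and 5.81 at p10 and 5.31 and 5.30 at p20 under Mulas2019. The lowest Keniry2022 library lay above the highest Mulas2019 library, and both methods were lower at p20. Mean RPKM of Utf1 was 88.1 ± 14.1 with Keniry2022 culture and 44.6 ± 7.81 with Mulas2019 culture (SD, n = 4 each), a log2 difference of 0.98 (SE 0.132, limma adjusted p = 0.00027).

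Nr0b1 (ENSMUSG00000025056, chrX:86191764-86195947) followed. Under Keniry2022 its log2 RPKM was 6.73 and 6.75 at p10 and 6.54 and 6.63 at p20. Under Mulas2019 it was 5.62 and 5.82 at p10 and 5.85 and 5.95 at p20. The 2 methods were separated by 0.59 log2 units between their nearest libraries, the widest gap among the 10 genes. Mean RPKM of Nr0b1 was 102 ± 6.72 and 56.3 ± 5.3 (SD, n = 4 each), a log2 difference of 0.855 (SE 0.0704, limma adjusted p = 3.82e-05). The X chromosome, on which it lies, had a median log2 difference of 0.07 over 391 features, and the 7 other chromosomes that carry the 10 genes had medians of -0.02 to 0.02.

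The partners Dppa2 and Dppa4 lie beside each other on chromosome 16, with 16185 bases between them, and both were higher under Keniry2022. Dppa4 (ENSMUSG00000058550, chr16:48283735-48294292) had log2 RPKM of 5.53, 5.49, 5.34 and 5.35 in the p10 and p20 Keniry2022 libraries and 4.84, 4.72, 4.88 and 4.89 in those of Mulas2019. Dppa2 (ENSMUSG00000072419, chr16:48310477-48319723) had 5.74, 5.74, 5.55 and 5.70 against 5.12, 5.19, 5.36 and 5.40. Neither gene overlapped between the methods, and Dppa2 came closest at p20. The log2 difference of Dppa4 was 0.59 (SE 0.0561, limma adjusted p = 5.9e-05). That of Dppa2 was 0.42 (SE 0.0686, limma adjusted p = 0.000807).

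Prdm14 (ENSMUSG00000042414, chr1:13113457-13127163) was the least abundant of the 10. Its log2 RPKM was 4.64, 4.61, 4.43 and 4.50 under Keniry2022 and 4.48, 4.41, 4.45 and 4.41 under Mulas2019. Only its p10 Keniry2022 libraries and 1 p20 library lay above the Mulas2019 range. The pooled log2 difference was 0.11 with a 95% confidence interval of 0.00 to 0.23, which did not pass after adjustment (limma adjusted p = 0.0821).

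Fbxo15 (ENSMUSG00000034391, chr18:84935158-84981376) was high in every library and differed with little spread. Its log2 RPKM was 8.54, 8.51, 8.36 and 8.35 under Keniry2022 and 7.87, 7.81, 7.89 and 7.95 under Mulas2019. The methods did not overlap, and pairs within a group lay within 0.06 of each other outside p0. Mean RPKM of Fbxo15 was 348 ± 23.7 and 236 ± 8.98 (SD, n = 4 each), a log2 difference of 0.56 (SE 0.0507, limma adjusted p = 4.73e-05).

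Dppa5a (ENSMUSG00000060461, chr9:78367052-78368177) differed by much less. Its log2 RPKM was 10.44, 10.38, 10.40 and 10.33 under Keniry2022 and 10.26, 10.23, 10.30 and 10.35 under Mulas2019, and the ranges overlapped at p20. The pooled log2 difference was 0.105 (SE 0.0397, limma adjusted p = 0.0486). With the replicate number as a block the adjusted p was 0.0616, and the call was also lost without p10 Keniry2022 replicate 1 or 2, p20 Keniry2022 replicate 1, p10 Mulas2019 replicate 1 or 2 or p20 Mulas2019 replicate 1 (adjusted p of 0.072 to 0.129).

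The AKT co-activator and the FGF ligand changed little. Tcl1 (ENSMUSG00000041359, chr12:105216750-105222793) had log2 RPKM of 5.22, 5.22, 5.23 and 5.16 under Keniry2022 and 4.97, 5.24, 5.22 and 5.01 under Mulas2019. Its Keniry2022 libraries fell inside the Mulas2019 range, and the 95% confidence interval of its log2 difference ran from -0.04 to 0.24 (limma adjusted p = 0.201). Fgf4 (ENSMUSG00000050917, chr7:144861386-144865243) had 6.77, 6.72, 6.70 and 6.72 against 6.63, 6.62, 6.63 and 6.70. The methods touched without overlapping, and the log2 difference of 0.08 had a 95% confidence interval of 0.01 to 0.15 (limma adjusted p = 0.0546).

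Dppa3 (ENSMUSG00000046323, chr6:122626410-122630272) showed no difference when the passages were pooled. Its log2 RPKM was 5.52 and 5.34 at p10 and 5.90 and 5.54 at p20 under Keniry2022, and 6.17 and 5.82 at p10 and 4.96 and 5.33 at p20 under Mulas2019. Both Mulas2019 libraries lay above those of Keniry2022 at p10 and below them at p20. Its pooled 95% confidence interval was accordingly the widest of the 10, from -0.50 to 0.51 (limma adjusted p = 0.987).

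**Figure D2:**
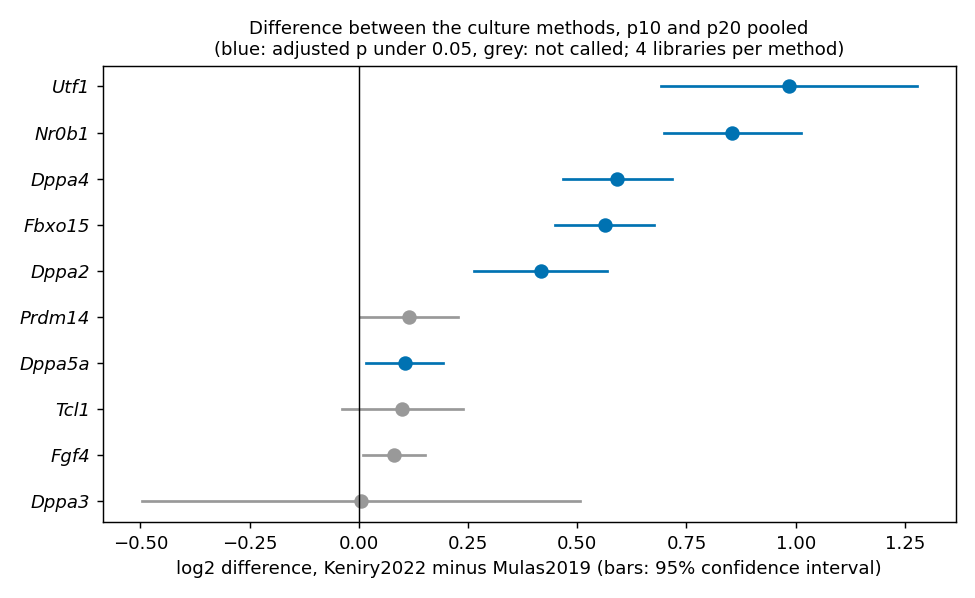
Log2 difference of each gene between Keniry2022 and Mulas2019 with p10 and p20 pooled (x axis; points, fitted difference; bars, 95% confidence interval; 4 libraries per method). The 6 genes in blue passed the test and those in grey did not; Utf1 and Nr0b1 lie farthest from 0 and Dppa3 has the widest interval.

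The methods were next compared within each passage, in a fit of the 8 libraries in 4 groups. At p10, 9 of the 10 genes were called, 8 higher under Keniry2022 and Dppa3 lower, where 48.3% of all features were called in either direction and 24.8% were called higher. At p20, 6 were called and all were higher, where 18.6% of all features were higher. Dppa3 was among them.

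Nr0b1 differed by 1.02 at p10 and 0.69 at p20 on the log2 scale, and Utf1 by 1.02 and 0.95. The Dppa4 difference was 0.73 at p10 and 0.46 at p20. That of Fbxo15 was 0.69 and 0.44, and that of Dppa2 0.59 and 0.25. All 5 genes passed at both passages and all had the larger value at p10, with limma adjusted p of 7.48e-05 to 0.000332 at p10 and 0.000522 to 0.0113 at p20. Smaller differences were called at p10 for Prdm14 (0.19, limma adjusted p = 0.0146), Dppa5a (0.17, 0.0124) and Fgf4 (0.12, 0.043), none of which passed at p20. The Fgf4 call was lost with the replicate block (limma adjusted p = 0.0574) and without any 1 of the p10 libraries or the p20 Keniry2022 libraries (0.0528 to 0.218). The p10 calls of Prdm14 and Dppa5a were lost without p10 Keniry2022 replicate 1 (0.0855 and 0.0947) or p10 Mulas2019 replicate 2 (0.0789 and 0.0513), and the p20 call of Dppa2 without p20 Keniry2022 replicate 2 (0.0542) or p20 Mulas2019 replicate 1 (0.0661). In a model of all 10 libraries, whose error estimate includes the p0 pair, 4 of the 10 were called at p10, where 8.53% of all features were, and 0 at p20, where 2.15% were (adjusted p of Nr0b1 0.0763 and of Fbxo15 0.0708 at p20).

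Dppa3 was lower under Keniry2022 by 0.57 on the log2 scale at p10 (SE 0.163, limma adjusted p = 0.021) and higher by 0.58 at p20 (SE 0.163, limma adjusted p = 0.026). The p10 call was lost without p10 Keniry2022 replicate 2 (limma adjusted p = 0.115) or p10 Mulas2019 replicate 1 (0.131), and the p20 call without p20 Keniry2022 replicate 1 (0.137) or p20 Mulas2019 replicate 1 (0.147), with the sign kept each time. Both calls were also lost with no filter and in the model of all 10 libraries. Quantile normalisation lost the p20 call. Within Mulas2019 culture Dppa3 fell by 0.85 between p10 and p20 (limma adjusted p = 0.0426), from 72.2 and 56.5 RPKM to 31.2 and 40.3. It was the 1 gene of the 10 called in that comparison, in which 0.858% of all features were lower. The call was lost when either p20 Mulas2019 library, p10 Mulas2019 replicate 1 or either p10 Keniry2022 library was left out (limma adjusted p of 0.0715 to 0.203), in fits that called 0% to 0.129% of all features in either direction against 2.47% with all libraries. Without p20 Keniry2022 replicate 1, 2 of the 10 and 2.38% of all features were called. Within Keniry2022 culture 0 of the 10 passed between the passages, where 0.0343% of all features did, and 4 of the 10 had an unadjusted limma p under 0.05, as had 12.7% of all features. Dppa3 there had a log2 difference of 0.29 with a 95% confidence interval of -0.08 to 0.67.

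Whether the difference between methods itself changed with passage was tested by the interaction of method and passage. In limma, 0 of the 10 genes passed, and 0% of all features did. An unadjusted p under 0.05 was obtained for 5 of the 10 and for 15.8% of all features. The interaction of Dppa3 was the largest of the 10, at 1.14 (SE 0.231, limma adjusted p = 0.104), and it was positive. All the others were negative, with Dppa2 (-0.34), Nr0b1 (-0.34), Dppa4 (-0.27) and Fbxo15 (-0.25) farthest from 0. With voom, the precision-weighted fit of limma run on whole reads recovered from the values, 84 features passed and Dppa3 was among them (adjusted p = 0.0423). Over its 17 alternatives the Dppa3 interaction ran from 0.96 to 1.33, with adjusted p of 0.0423 to 1.

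**Figure D3:**
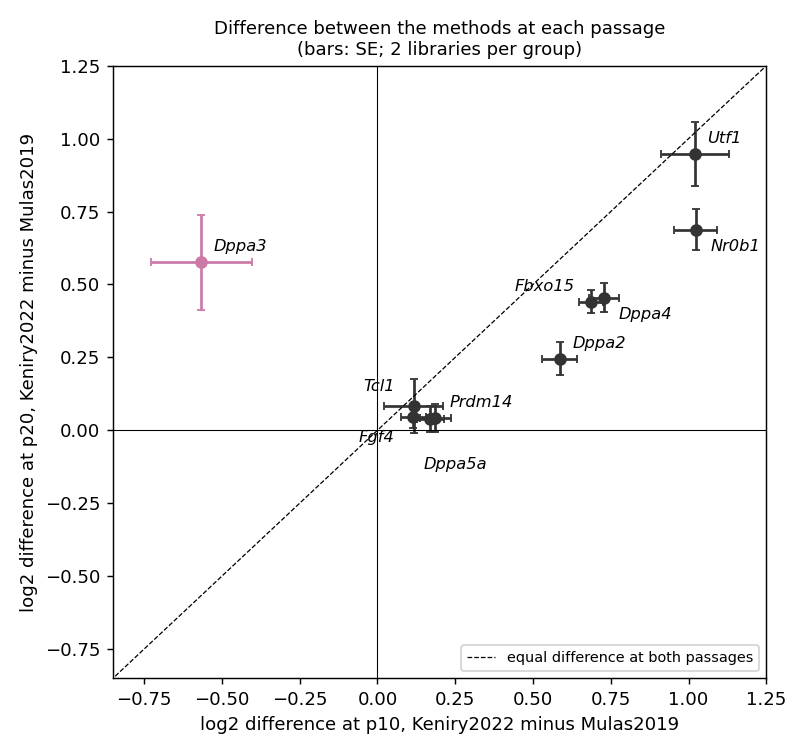
Log2 difference between Keniry2022 and Mulas2019 at p10 (x axis) and at p20 (y axis) for each gene, with bars for the SE and 2 libraries per group. Points on the dashed line would differ equally at both passages. Dppa3, in pink, is the 1 gene with opposite signs, and all the others lie below the line.

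Libraries matched in days rather than passages, p20 Keniry2022 against p10 Mulas2019, gave 6 of the 10 genes called higher and none lower, where 22.7% of all features were higher. The 6 were the genes called in the pooled comparison. Nr0b1 was higher by 0.87 on the log2 scale (SE 0.069, limma adjusted p = 0.00031), Utf1 by 0.63 and Dppa4 by 0.56. Fbxo15 was higher by 0.52, Dppa2 by 0.47 and Dppa5a by 0.12 (limma adjusted p = 0.0469, and 0.0608 to 0.232 without any 1 of the libraries other than p20 Keniry2022 replicate 2). Dppa3 had a log2 difference of -0.27 with a 95% confidence interval of -0.65 to 0.10.

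Each group was then compared with the cells at p0, from which both methods started. The 2 libraries at p0, 1 per line, differed, and line, Y loss and library cannot be told apart there. Dppa3 was 117 RPKM in replicate 1 and 57.1 in replicate 2, Dppa5a 3050 and 1770, Utf1 120 and 64.6 and Nr0b1 176 and 121. Replicate 1 was the higher in 9 of the 10 genes, and Fgf4 was alike in both, at 120 and 121 RPKM. All comparisons in this paragraph share these 2 libraries. For Keniry2022, 0 of the 10 genes passed in limma at p10 and 0 at p20, where 0.199% of all features passed at each, and 4 of the 10 had an unadjusted p under 0.05 each time, where 24.7% and 28% of all features had. These counts rested on the p0 pair. Without p0 replicate 1 they were 3 and 2, where 5.23% and 4.61% of all features were called, and without p0 replicate 2 they were 5 and 9, where 64.3% and 66.5% were. For Mulas2019, 7 of the 10 were lower at p10, where 17.3% of all features were lower, and 7 at p20, where 14.6% were.

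Nr0b1 had the lowest level relative to p0 at both Mulas2019 passages, with log2 differences of -1.47 at p10 (SE 0.165, limma adjusted p = 0.00613) and -1.29 at p20 (limma adjusted p = 0.00895). Its Keniry2022 values were -0.45 and -0.60, neither of which passed. Fbxo15 had values of -0.88 and -0.80 under Mulas2019, both called, and of -0.19 and -0.36 under Keniry2022. Dppa4 had values of -0.65 and -0.54 under Mulas2019, both called, and of 0.08 and -0.09 under Keniry2022. Utf1 had -0.84 and -1.15 under Mulas2019, both called, and 0.18 and -0.21 under Keniry2022. The Utf1 values depended on the p0 library: p0 replicates 1 and 2 were at 6.91 and 6.01, with the p10 Keniry2022 mean of 6.64 between them, and replicate 2 was closer to the p10 Mulas2019 mean of 5.62. Over the alternatives the Utf1 difference of Mulas2019 p10 from p0 ran from -1.29 to -0.39.

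Dppa5a differed in this respect, with log2 values from p0 of -0.94 and -0.85 under Mulas2019, both called, and of -0.77 and -0.82 under Keniry2022, neither called (limma adjusted p = 0.144 and 0.122). Fgf4 had values of -0.28 and -0.24 under Mulas2019, both called, and of -0.17 and -0.20 under Keniry2022. Dppa2 was called at p10 of Mulas2019 (-0.55) and not at p20 (-0.33), and Dppa3 at p20 (-1.21) and not at p10 (-0.36). Tcl1 and Prdm14 passed in none of the 4 comparisons. With the replicate block the calls of Utf1 at p10 (limma adjusted p = 0.0534) and of Fgf4 at p20 (0.053) were lost. With libraries weighted by quality 0 of the 10 were called under Mulas2019 at either passage in limma, and 0% of all features were, while 22.1% at p10 and 21% at p20 had an unadjusted p under 0.05. At p10 the count was 0 without p10 Mulas2019 replicate 1, where 0.0958% of all features were called, and 2 without replicate 2, where 1.23% were. At p20 it was 0 without p20 Mulas2019 replicate 1 or 2, where 0.00872% and 0.139% were called. It was 3 without any 1 of the p10 libraries or of the p20 Keniry2022 libraries, where 11.1% to 13.2% were. In the fit of all 10 libraries without weights 33% of all features were called at p10 and 29.3% at p20, so that these counts fell together with those over all features.

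**Figure D4:**
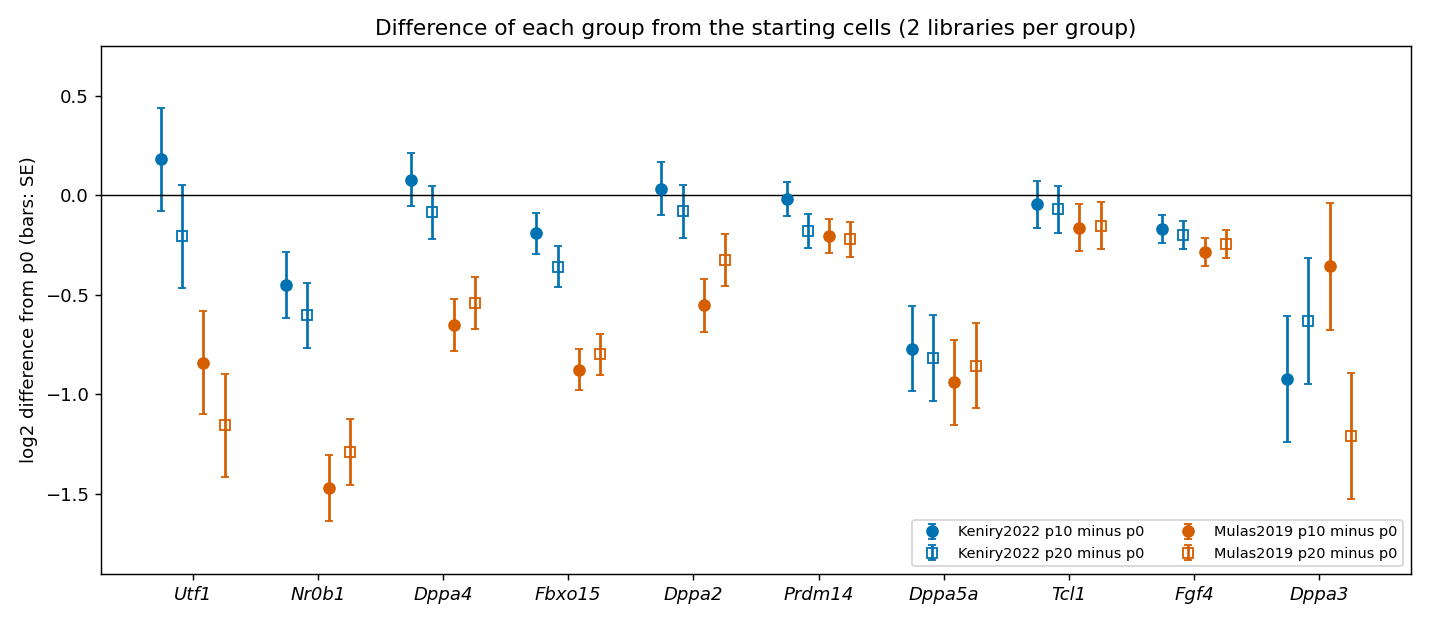
Log2 difference of each group from p0 (y axis) for each gene (x axis), with bars for the SE and 2 libraries per group (blue, Keniry2022; orange, Mulas2019; filled circles, p10; open squares, p20). The Mulas2019 points of Nr0b1, Utf1, Fbxo15 and Dppa4 lie below those of Keniry2022, while the 4 points of Dppa5a lie together near -0.77 to -0.94.

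Further genes were followed by list, in the pooled comparison in which 51.5% of features were called. Of 14 core naive transcription factors, 4 were higher under Keniry2022 (Nanog, Zfp42, Klf2 and Pou5f1) and 1 lower (Klf4), with a median log2 difference of 0.07. Pou5f1, which encodes Oct4, was higher by 0.40 (SE 0.05, limma adjusted p = 0.000192) and Nanog by 0.18 (0.0162), while Sox2 had a value of -0.11 (0.0671). Of 14 tested genes listed for the naive state or inner cell mass outside the 10, 8 were higher and 1 lower, with a median of 0.23. L1td1 was higher by 0.49 (limma adjusted p = 9.54e-05) and Trim28 by 0.30, and Tdgf1 had a value of 0.05. Of 7 tested formative and primed markers 3 were higher, among them the methyltransferase gene Dnmt3b by 0.78 (limma adjusted p = 0.0001), and none was lower. The shares called in these 3 lists lay on either side of the share over all features.

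Fgf4 acts through FGF receptors and ERK, the kinase below MEK. Of 8 tested FGF receptors and ERK feedback genes, 4 were higher under Keniry2022 (Fgfr2, Etv4, Spry2 and Etv5) and 3 lower (Spry1, Fgfr3 and Fgfr1). In this pooled comparison 51.5% of all features were called in either direction and 25.9% were called higher. Etv5, a transcription factor induced by ERK, was higher by 0.29 (SE 0.0419, limma adjusted p = 0.000379) and Fgfr1 was lower, at -0.15 (0.0253). Genes of the 2-cell-like state, on which Dppa2 and Dppa4 are known to act, were close to absent: 8 of 12 were in the table, 0 could be tested, and the highest value in any library was 2.21 RPKM. Of 10 primordial germ cell and germline genes, a group in which Dppa3 and Prdm14 are also known, 1 was higher and 3 were lower. Dazl was higher by 0.50 (limma adjusted p = 0.000872), and Tfap2c, Kit and Sycp3 were lower. These calls stand beside the same 51.5% of all features called in either direction.

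Within 100 kb of the 10 genes, 22 of 46 distinct neighbouring features could be tested, with Dppa2 and Dppa4 counted as neighbours of each other. Of these 10 were called, 7 higher and 3 lower, and Dppa2 and Dppa4 are themselves among the 7. Across all features 51.5% were called in either direction and 25.9% were called higher. Counting both directions together, neighbours were not called more often than features at large. Their share called higher was above 25.9%, with Dppa2 and Dppa4 counted in it. Beside Dppa2 and Dppa4, Gm7204 was higher by 0.45 (SE 0.0791, limma adjusted p = 0.00116), close to the values of both. At Fbxo15, Cyb5 was higher by 0.46 (limma adjusted p = 0.000184). 1700034H14Rik, which overlaps Fbxo15 on the opposite strand, was higher by 0.43 at a far lower level (mean log2 RPKM of 1.66). Reads of these overlapping features cannot be told apart without strand, and the same holds for Tcl1 and Gm20697, whose mean log2 RPKM of 5.29 was like that of Tcl1.

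The cluster around Dppa3 was mixed. Nanog (0.18) and Gdf3, a TGF-beta family ligand (0.15, limma adjusted p = 0.0104), were higher, while Apobec1 (-0.84, 0.000216) and the glucose transporter gene Slc2a3 (-0.58, 0.000129) were lower. Next to Dppa5a, the oocyte gene Ooep had a log2 difference of 0.11 that did not pass (limma adjusted p = 0.189), and Mto1 was lower, at -0.15 (0.0304). Tubgcp2 (-0.07) and Zfp511 (0.00) beside Utf1 were not called, although Utf1 had the largest difference of the 10 genes. Fgf3, Oraov1 and Ccnd1 beside Fgf4 and Ncoa2 beside Prdm14 were not called either. Copies related to Dppa3 and Dppa5a exist in the genome, and how reads shared with them were assigned is not given in the sources used here. One of these, Dppa5b, lies 51109 bases from Prdm14 and had 41 reads in the 10 libraries together.

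**Figure D5:**
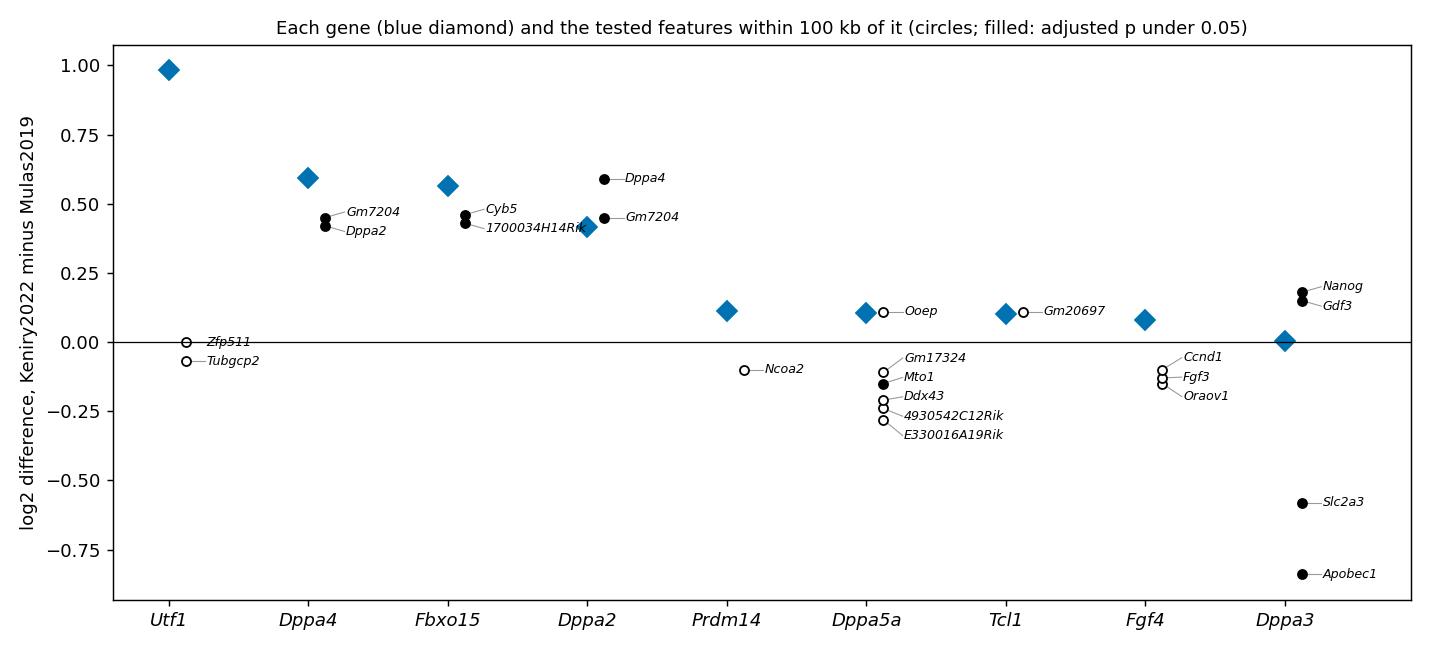
Pooled log2 difference between Keniry2022 and Mulas2019 (y axis) of each gene with tested neighbours (blue diamond) and of those neighbours within 100 kb (circles; filled, adjusted p under 0.05). Gm7204 and Cyb5 lie near Dppa2, Dppa4 and Fbxo15, whereas the neighbours of Utf1 lie at 0 and those of Dppa3 on both sides of it.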

How the data were processed

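RNA was measured in 10 libraries of single-end reads made with a kit taken here as unstranded. Submitters' processing notes name TopHat2 2.0.12 and mm10, whereas the study's methods name HISAT2. The deposited table holds log2 values per feature made by the authors with SeqMonk. It is described as scaled by library total alone, but the values were also scaled by exon length (log2 RPKM): with exon lengths and library totals recovered from the steps between values, 100% were whole reads within 0.1 reads, features without reads having been entered as 0.9 reads. For 2789 features several lengths were possible.

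Groups came from the labels (New and Off, Keniry2022; Old and On, Mulas2019). Features with log2 values above 0 in at least 50% of the libraries of a fit were tested, two-sided, with limma 3.58.1 (R 4.3.3, intensity trend) and Benjamini-Hochberg adjustment at 0.05. The fits were method pooled over p10 and p20 (8 libraries), 4 groups without p0 (8 libraries) and all 5 groups (10 libraries). Confidence intervals are 95% and unadjusted. The count-based test of the study was replaced by limma on the log2 values since no counts were used as deposited; reads recovered from them were tested with voom as an alternative. Scripts were tested on simulated data. Other alternatives were quantile normalisation, median centring, a stricter filter or none, library quality weights, a passage term, the replicate block and each library left out.

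The 10 genes, the lists and the neighbours were chosen with earlier results of these data known. The genes named were the 10, the 3 most abundant of each list and neighbours within 100 kb; other list genes are named only to say which made up a count, chosen after their values were seen. The study's methods say that each line was divided between the methods, and the labels number the libraries of every group; that a number marks the same line was assumed for the block. Deviations of same-numbered libraries from their group means correlated at 0.171 to 0.63 among p0, p10 and p20 Mulas2019 and p10 Keniry2022, and at -0.118 to -0.698 with p20 Keniry2022.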

Additional observations from a re-analysis of the deposited data

Results flagged for a closer look

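Dppa3 differed between the methods in opposite directions at the 2 passages. Both p10 Keniry2022 libraries lay below both p10 Mulas2019 libraries and both p20 Keniry2022 libraries lay above both p20 Mulas2019 libraries. The difference between passages, 1.14 on the log2 scale, was tested as an interaction and did not pass in limma (adjusted p = 0.104).

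Fgf4 under Mulas2019 had 1 library far from the other three. Replicate 2 at p20, at 6.70, was separated from the nearest of the others by 0.895 of the range of the 4 libraries, above Dixon's 95% critical value. Of 20 sets of 4 libraries examined (10 genes under each method) this was the only one past that value, and chance gives about 1 in 20.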

How the results depend on the processing

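For 47 differences of the 10 genes, 823 values under alternatives were computed, of which 655 kept direction and side of the threshold, 152 lost the call, 8 gained it and 8 changed sign. The pooled calls of Nr0b1, Fbxo15, Dppa2, Dppa4 and Utf1 were kept under all 18 alternatives, with adjusted p up to 0.0206, and that of Dppa5a was lost under 10. Under quantile normalisation the sign changed for Dppa3 pooled (-0.10) and for Fgf4 pooled (-0.046), at p10 (-0.001), and under Mulas2019 against p0 at p10 (0.02) and p20 (0.063). That setting gave Dppa5a exactly 0 outside p0, where it ranked 6th in all 8 libraries. Leaving out 1 library, the pooled Dppa3 value ran from -0.198 to 0.206, below 0 without p20 Keniry2022 replicate 1 (-0.10), p20 Mulas2019 replicate 1 (-0.20) or replicate 2 (-0.08). Prdm14 and Fgf4 passed the pooled test under 3 and 4 alternatives.

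In the model of all 10 libraries 4 genes were called at p10 and 0 at p20, where 8.53% and 2.15% of all features were. It gave 3 in the days-matched comparison, where 6.43% were, and 0 between the Mulas2019 passages, where 0% were. With no filter that last count was also 0, where 0.0539% were. Voom gave 1 interaction, where 0.721% of all features passed. Quantile normalisation gave 1 gene called for Keniry2022 against p0 at p10 and 1 at p20, where 0.208% and 0.251% were. Quality weights gave 0 against p0 under Mulas2019 at p10 and 0 at p20, where 0% were each time. No filter gave 4 in that comparison at p20, where 7.61% were. With single libraries left out, counts ran from 5 to 7 pooled, 6 to 9 at p10, 4 to 6 at p20, 5 to 6 matched in days and 0 to 2 between the Mulas2019 passages, from 0 to 5 and 0 to 9 for Keniry2022 against p0 at p10 and p20, and from 0 to 9 at both for Mulas2019. The share of all features called also moved with the library left out, so these ranges cannot be read as particular to the 10 genes. The cause was not tested. Leaving out 1 of a pair assumes that the other varies like the rest.

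With the replicate block 5 genes were called pooled, 8 at p10, 6 at p20 and 6 against p0 under Mulas2019 at either passage. No call changed beside those named with the results. Of all features 49.3% were called pooled, 47.5% at p10, 35.3% at p20, and 30.9% (p10) and 27.1% (p20) against p0. With the p20 Keniry2022 numbers exchanged, an alternative chosen after seeing the data, the counts were 5, 8, 6 and 6. The shares of all features were then 49.6%, 48.7%, 37.6%, and 29.8% and 25.9%. In the days-matched comparison the count was 5 in place of 6, where 43.8% of all features were called. Depth did not limit the 10 genes.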
